A study of Homo sapiens with 12 samples.

Results

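The genes described here encode the working parts of the lysosome: the proton pump (V-ATPase) with its accessory subunits, the cathepsin proteases, the lysosome-associated membrane proteins (LAMPs) and the mucolipin channels. They were chosen by symbol alone, as the rows of the deposited count table named ATP6V0 or ATP6V1 with a subunit letter, ATP6AP1 or ATP6AP2, LAMP1 to LAMP3, MCOLN1 to MCOLN3, or CTS with 1 of the letters A, B, C, D, F, H, K, L, O, S, V and Z. The rule matched 42 of the 57730 genes in the table: 9 subunits of the V0 sector, 13 of the V1 sector, 2 accessory subunits, 12 cathepsins, 3 LAMPs and 3 mucolipins. TCIRG1, which encodes another isoform of V0 subunit a, has a name that the rule does not match and is given only where the isoforms are compared.

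Polyadenylated RNA was sequenced from a human breast cancer line that the sample labels call MDA-MB-231, a triple-negative line, and the series title calls LM3. The libraries formed 4 groups of 3. The group shControl carried a control short hairpin RNA, and shACSL5 carried a hairpin meant to lower ACSL5, a long-chain acyl-CoA synthetase that activates fatty acids. The groups shControl_PA and shACSL5_PA were the same 2 kinds of cells treated with palmitic acid, a saturated fatty acid. The sources used here do not give how much palmitic acid was added, for how long or in what vehicle, nor the hairpin sequence, the number of hairpins and whether the cells were clones or pools. Palmitate and a vehicle thus cannot be told apart, nor can the loss of ACSL5 and a feature of 1 hairpin or clone. Whether the libraries of a group came from separate cultures is not stated either, and the p-values then reflect spread between libraries that may be technical.

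The V-ATPase acidifies lysosomes and other organelles. Its V1 sector, on the cytosolic side, hydrolyses ATP, and its V0 sector, in the membrane, carries protons into the lumen. Most cathepsins are proteases that work at that acid pH, the heavily glycosylated LAMPs make up much of the protein of the lysosomal membrane, and mucolipins release cations, calcium among them, from the lumen. Many of these genes can be switched on together by the MiT/TFE transcription factors (TFEB, TFE3, MITF), which bind a DNA element known as CLEAR.

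Library totals ran from 16788694 to 21814751 counts. Levels are CPM (counts scaled to library size) with TMM factors, given as mean ± SD of 3 libraries. ACSL5 itself stood at 142, 143 and 145 CPM in shControl, 10.9, 10.2 and 12.5 in shACSL5, 189, 194 and 189.6 in shControl_PA and 14.9, 13.3 and 17.6 in shACSL5_PA, so the groups matched their labels (knockdown without palmitate: log2 change -3.67, SE 0.069, adjusted p = 4.2e-21). Changes are log2 ratios from 1 edgeR model over the 14706 genes that passed the filter on low counts. A gene was called at a Benjamini-Hochberg adjusted p under 0.05 in edgeR's quasi-likelihood test, with adjustment over all 14706. All 8 listed markers of the MDA-MB-231 line passed the filter, and with the knockdown 5 of them fell and 1 rose, while the oestrogen receptor gene ESR1 had at most 8 counts in a library and the progesterone receptor gene PGR at most 1. Of 8 luminal and hormone receptor markers 5 passed, and 1 rose and 2 fell with the knockdown. Both counts are for the knockdown without palmitate, where 62.3% of all genes tested were called, 29.7% higher and 32.6% lower. Calls in such short lists are therefore not read as a change of cell type. Of 15 macrophage and osteoclast markers, cells whose lysosomal genes include ATP6V0D2, CTSK and CTSS, 6 were at 0 in every library (TYROBP, AIF1, C1QA, C1QB, OCSTAMP and DCSTAMP). The 15 together gave 0.714 to 1.42 CPM in untreated control libraries and 1.72 to 2.43 in untreated knockdown libraries, and with palmitate 0.328 to 1.09 and 0.752 to 1.62.

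Of the 42 genes, 35 passed the filter. The other 7 were LAMP3, ATP6V0D2, ATP6V1B1, ATP6V1G2, ATP6V1G3, CTSF and CTSS, with totals between 1 count (CTSF) and 63 counts (ATP6V1G2) over all 12 libraries, so a change in them was not detectable at this depth. For 4 subunits with several isoforms, 1 isoform held nearly all of the RNA per exon length in shControl: ATP6V1B2 99.5% ± 0.563 of V1 subunit B, ATP6V1G1 99.8% ± 0.0853 of subunit G, ATP6V1C1 98.0% ± 0.343 of subunit C and ATP6V0E1 96.6% ± 0.286 of V0 subunit e. Subunit a was spread over TCIRG1 at 57.9% ± 0.509, ATP6V0A1 at 23.3% ± 0.510 and ATP6V0A2 at 17.9% ± 0.733. This order depends on the union exon lengths, which were 4.384 kb for TCIRG1, 10.955 kb for ATP6V0A1 and 13.729 kb for ATP6V0A2. Such lengths add the exons of all annotated transcripts and may exceed those of the transcripts expressed here. All levels and shares per exon length in this text carry that limit. Per kilobase of exon (RPKM, from annotated union exon lengths), the highest of each class in shControl were ATP6V0E1 at 108 ± 4.34, ATP6V1F at 65.2 ± 1.68, ATP6AP1 at 15.4 ± 0.826, CTSD at 64.5 ± 1.77, LAMP2 at 36.0 ± 0.114 and MCOLN2 at 14.3 ± 0.275. ATP6V1G1 at 62.7 ± 1.33 lay next to ATP6V1F. Among cathepsins, CTSB at 58.9 ± 1.32, CTSZ at 56.5 ± 2.92 and CTSL at 52.1 ± 0.285 followed CTSD. CTSA at 17.7 ± 0.169 and CTSC at 8.22 ± 0.340 came lower per length. Their union exon lengths were 5.856 and 11.421 kb, against 2.366 kb for CTSL. In CPM there was no wide step, with CTSL at 123, CTSZ at 115, CTSA at 103 and CTSC at 93.9 in shControl.

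ACSL5 knockdown without palmitate moved the membrane sector of the pump and the cathepsins in different directions. All 8 tested V0 genes rose, from ATP6V0A2 at 0.22 to ATP6V0A4 at 2.82 on the log2 scale, and none fell. TCIRG1, the V0 subunit gene that the rule does not match, fell and is in neither this count nor the V0 sums below. In the V1 sector 5 of 10 rose and 2 fell, of the cathepsins 2 of 10 rose and 6 fell, and of the 2 accessory subunit genes ATP6AP1 fell. Over all 35 genes 17 rose and 10 fell, that is 27 called. Among all genes tested 62.3% were called, 29.7% higher and 32.6% lower, so being called was common in this comparison and the count of 27 is read against that share. The median change was 0.113 over the 35 and -0.0196 over all genes tested.

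Summed over the class, V0 RNA was 484 ± 13.3 CPM in shControl and 748 ± 7.29 in shACSL5, 54.4% more, and the ranges of the libraries (471 to 498 and 739.5 to 754) did not overlap. Summed V1 RNA was 655 ± 10.9 and 669 ± 20.4 CPM, 2.04% apart with overlapping libraries. Summed cathepsin RNA was 1095 ± 17.0 and 943 ± 26.6 CPM, 13.9% less in shACSL5, without overlap. These sums carry no test. In bulk RNA, less RNA per cell and fewer cells that express a gene cannot be told apart.

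**Figure D1:**
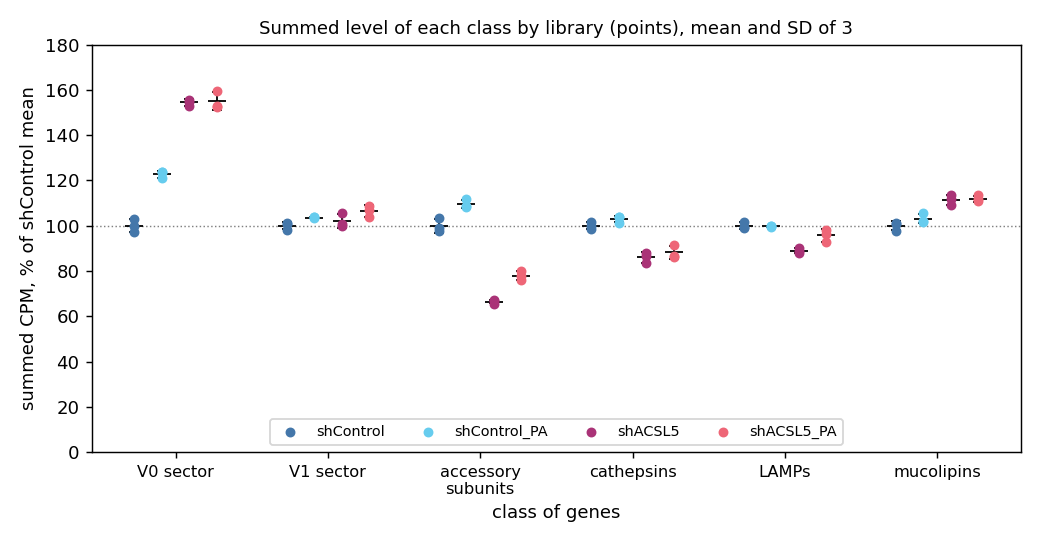
Summed CPM of each class as a percent of the shControl mean, with 1 point for each library and the mean ± SD of 3 as a bar, for the 4 groups of each class. The V0 sector is above shControl in the other 3 groups, the accessory subunits and cathepsins are lower in both knockdown groups, and the V1 sector stays near the dotted line at the control mean.

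ATP6V0C (ENSG00000185883, GRCh38 chromosome 16, 2513870 to 2520218, plus strand) encodes subunit c, the protein of the rotating proton-carrying ring. It stood at 58.8, 60.7 and 65.5 CPM in shControl, 132, 134 and 135 in shACSL5, 89.0, 99.4 and 83.3 in shControl_PA and 138, 135 and 144 in shACSL5_PA. The shControl libraries were lowest, shControl_PA lay above them, and both knockdown groups lay above all control libraries without overlap. The knockdown effect without palmitate was log2 change 1.11, SE 0.054, adjusted p = 4.37e-14. By exon length, 72.1% of ATP6V0C overlaps annotated genes on the same strand, whose own rows held 0 to 13 and 0 to 4 counts a library, so how reads shared with them were assigned is not known.

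ATP6V0E2 encodes an isoform of the small subunit e. Its values were 27.2, 24.0 and 26.0 CPM in shControl, 44.9, 48.0 and 46.2 in shACSL5, 32.3, 29.3 and 25.7 in shControl_PA and 41.8, 43.1 and 45.2 in shACSL5_PA. Each knockdown library lay above each control library of the same treatment (log2 change 0.85, SE 0.073, adjusted p = 8.3e-10). The antisense gene ATP6V0E2-AS1, which covers 12.8% of its exon length, had 64 to 91 counts in the libraries of shControl and 160 to 214 in those of shACSL5. With palmitate it had 48 to 87 in control and 109 to 122 in knockdown libraries. Without a stated strand setting, reads of the pair cannot be told apart.

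ATP6V0D1 (ENSG00000159720, GRCh38 chromosome 16, 67438014 to 67481237, minus strand), subunit d of the stalk that joins the ring to V1, stood at 50.9, 55.3 and 56.9 CPM in shControl, 94.2, 91.4 and 95.1 in shACSL5, 77.4, 71.8 and 74.95 in shControl_PA and 97.3, 99.5 and 99.2 in shACSL5_PA. Its order of groups was that of ATP6V0C (log2 change 0.78, SE 0.048, adjusted p = 2.09e-12). ATP6V0E1, the main subunit e gene, stood at 168, 175 and 182 CPM in shControl, 259.9, 254 and 255 in shACSL5, 190.2, 192 and 197 in shControl_PA and 228, 223 and 234 in shACSL5_PA. It was higher in each shACSL5 library than in any control library (log2 change 0.55, SE 0.035, adjusted p = 4.24e-12). ATP6V0B, whose product c″ sits in the ring beside subunit c, stood at 63.6, 60.8 and 62.1 CPM in shControl, 94.1, 81.5 and 92.8 in shACSL5, 88.8, 85.8 and 83.1 in shControl_PA and 98.3, 106 and 114 in shACSL5_PA. All shACSL5 libraries of ATP6V0B exceeded all shControl libraries (log2 change 0.53, SE 0.058, adjusted p = 3.87e-08).

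The a subunits carry protons to and from the ring and direct the pump to its membrane. ATP6V0A1 stood at 53.5, 52.3 and 53.1 CPM in shControl, 62.6, 60.8 and 66.4 in shACSL5, 66.1, 67.1 and 70.1 in shControl_PA and 74.9, 75.6 and 75.8 in shACSL5_PA, with no overlap between any pair of groups compared here (log2 change 0.26, SE 0.048, adjusted p = 6.92e-05). ATP6V0A4, the isoform known from kidney and inner ear, is a low gene and was chosen after its values were seen. It stood at 0.570, 0.933 and 0.737 CPM in shControl, 5.82, 5.86 and 4.32 in shACSL5, 0.710, 0.787 and 0.981 in shControl_PA and 5.88, 4.25 and 4.35 in shACSL5_PA, and both knockdown groups lay above both control groups (log2 change 2.82, SE 0.26, adjusted p = 1.82e-09). Per exon length its share of subunit a RNA, TCIRG1 included, was 0.871% ± 0.204 in shControl and 5.94% ± 1.19 in shACSL5. The share of TCIRG1 was 47.9% ± 2.52 in shACSL5, and unlike the 8 matched V0 genes it fell (log2 change -0.19, SE 0.064, adjusted p = 0.0115).

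**Figure D2:**
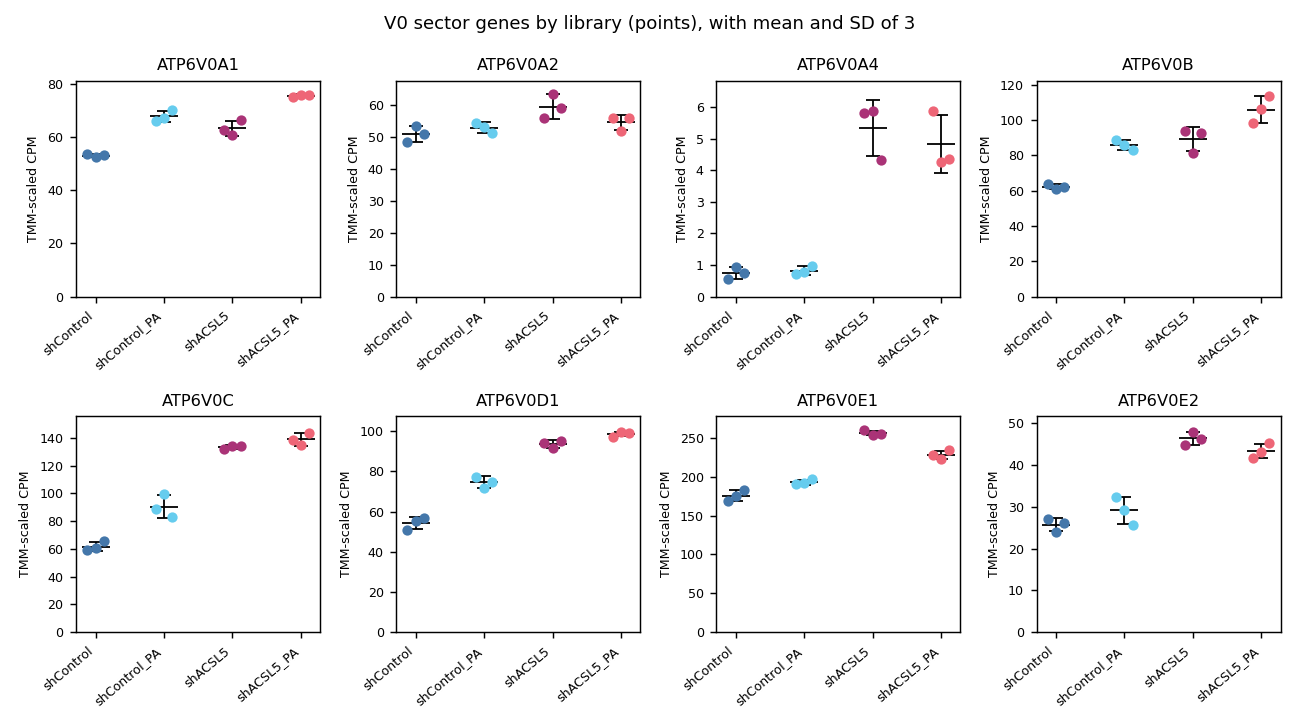
TMM-scaled CPM of the 8 tested V0 genes (linear axes from 0), with 1 point for each library and a bar for the mean ± SD of 3 in each group. Every shACSL5 library is above every shControl library for all 8 genes. The share of all genes without such overlap was not computed, and 29.7% of all genes tested were called higher in this comparison. In ATP6V0C and ATP6V0D1 shControl_PA lies between shControl and the knockdown groups.

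Because the V0 genes moved together, promoters were read for CACGTG, the core of the CLEAR element, which is its own reverse complement and so reads the same on both strands. RefSeq promoters (GRCh38.p14, 250 bases before to 50 after the start, 300 in all) matched 28 of the 42 genes in 35 entries. CACGTG was present in 10 of these 35 entries (28.6%), against 7.26% of 35116 promoter entries of all genes. The longer TCACGTGA was in 14.3% against 0.98%. The longer motif holds the shorter one, so the counts overlap. Of the 10 entries, 2 belong to ATP6V0E2 and hold the same site. Many of these genes are known to respond to factors that bind CLEAR, as said above. The excess over all promoters is thus a trait of the chosen genes and not a result of these samples. The 9 genes with CACGTG were ATP6V0B, ATP6V0D1, ATP6V0E2, ATP6V1G1, CTSA, CTSD, CTSF, LAMP1 and MCOLN1. The following 30-base windows, read 5′ to 3′ on the gene's strand, show the CACGTG nearest to the start among windows wholly upstream of it for the 8 that were tested. Capitals mark CACGTG, and positions count back from the start.
ATP6V0B, chr1:43974909-43974938, plus strand, first capital at -39: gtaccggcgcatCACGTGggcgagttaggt
ATP6V0D1, chr16:67481199-67481228, minus strand, first capital at -59: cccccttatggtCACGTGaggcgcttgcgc
ATP6V0E2, chr7:149872884-149872913, plus strand, first capital at -68: tcccttctgcatCACGTGgggactgcgcct
ATP6V1G1, chr9:114587699-114587728, plus strand, first capital at -58: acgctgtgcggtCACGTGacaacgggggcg
CTSA, chr20:45891298-45891327, plus strand, first capital at -25: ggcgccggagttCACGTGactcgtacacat
CTSD, chr11:1763957-1763986, minus strand, first capital at -47: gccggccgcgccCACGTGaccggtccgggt
LAMP1, chr13:113297199-113297228, plus strand, first capital at -28: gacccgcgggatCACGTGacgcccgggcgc
MCOLN1, chr19:7522571-7522600, plus strand, first capital at -41: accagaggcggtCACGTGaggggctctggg

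With the knockdown, which raised 29.7% of all genes tested, 7 of these 8 genes rose and CTSD fell. Among the risers, the calls of CTSA and ATP6V1G1 were lost in some of the alternative fits given below. Of the 16 tested genes whose entries lack CACGTG, 7 rose and 3 fell, and the 7 include ATP6V0C, ATP6V0A1, ATP6V0A2 and ATP6V0A4. The other tested genes had no promoter entry and are in neither count. Most of them fell with the knockdown: LAMP2, ATP6V1A, ATP6V1C1, CTSB, CTSK and CTSO. ATP6V0E1, ATP6V1B2 and ATP6V1E2, also without an entry, rose, and ATP6V1H and MCOLN2 were not called. With palmitate in control cells, which raised 15.1% of all genes tested, 5 of the 8 and 5 of the 16 rose, and none fell. In knockdown cells palmitate raised 12.1% of all genes, 2 of the 8 and 5 of the 16, and lowered 2 of the 16. Under palmitate the knockdown raised 24.4% of all genes, 5 of the 8 and 5 of the 16, and lowered 1 and 3. The interaction was lower for 7.39% of all genes, 2 of the 8 and 2 of the 16. It was higher for 7.15% of all genes and 1 of the 16. These are counts of letters in a window beside calls, with no test.

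In the V1 sector the catalytic subunit gene fell. ATP6V1A (ENSG00000114573, GRCh38 chromosome 3, 113747019 to 113812056, plus strand), for subunit A, stood at 71.2, 74.98 and 72.7 CPM in shControl, 48.9, 54.0 and 47.8 in shACSL5, 68.5, 68.9 and 67.4 in shControl_PA and 60.8, 56.4 and 59.5 in shACSL5_PA. Each knockdown library was below each control library of the same treatment, and the fall without palmitate was -0.54 (SE 0.052, adjusted p = 4.73e-09). ATP6V1C1, a subunit of the stator, also fell, by 0.36 (adjusted p = 3.33e-07). ATP6V1F, the small subunit F of the rotor, stood at 49.96, 52.5 and 51.9 CPM in shControl, 75.3, 72.9 and 72.8 in shACSL5, 52.0, 51.1 and 53.7 in shControl_PA and 75.2, 73.7 and 73.8 in shACSL5_PA. Without palmitate its shACSL5 libraries were 1.43-fold higher (log2 change 0.52, SE 0.046, adjusted p = 1.34e-09), and neither palmitate comparison called it. ATP6V1E2, the minor isoform of the stalk subunit E, rose by 0.73 (SE 0.17, adjusted p = 0.000727) from 3.64 ± 0.639 CPM. Smaller rises were called for ATP6V1B2, the other nucleotide-binding subunit, at 0.14 (adjusted p = 0.00536) and for ATP6V1E1 at 0.17 (adjusted p = 0.00316). ATP6V1G1, a stalk subunit, was called at 0.17 (adjusted p = 0.014), and without shControl replicate 1 its adjusted p was 0.0511. ATP6V1H, ATP6V1D and ATP6V1C2 were not called.

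ATP6AP1 (ENSG00000071553, GRCh38 chromosome X, 154428632 to 154436516, plus strand), an accessory subunit needed to assemble V0 in the endoplasmic reticulum, stood at 71.9, 79.6 and 73.7 CPM in shControl, 31.2, 26.9 and 28.95 in shACSL5, 82.0, 84.1 and 82.3 in shControl_PA and 37.2, 29.97 and 37.0 in shACSL5_PA. Its highest knockdown library, at 37.2 CPM, lay below its lowest control library, at 71.9. It was 2.58-fold lower without palmitate (log2 change -1.37, SE 0.071, adjusted p = 1.33e-13). ATP6AP2, the other accessory subunit, known also as the prorenin receptor, stood at 58.7, 59.2 and 59.0 CPM in shControl, 56.7, 63.0 and 60.3 in shACSL5, 63.4, 61.2 and 67.4 in shControl_PA and 67.0, 71.9 and 70.0 in shACSL5_PA, and the knockdown effect on it was 0.023 (adjusted p = 0.726).

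CTSV (ENSG00000136943, GRCh38 chromosome 9, 97029679 to 97039643, minus strand), a cysteine protease close in sequence to CTSL, showed the largest fall of the 35. It stood at 8.37, 8.95 and 8.10 CPM in shControl, 1.19, 1.78 and 1.32 in shACSL5, 6.45, 6.91 and 8.01 in shControl_PA and 1.86, 2.17 and 2.096 in shACSL5_PA. All 6 knockdown libraries lay below all 6 control libraries (log2 change -2.58, SE 0.18, adjusted p = 3.16e-11). CTSL, expressed at a far higher level, fell by 0.24 (adjusted p = 1.15e-05), and 0.64% of the 50-base words of CTSL and 0.38% of those of CTSV also occurred in other annotated genes. CTSB, the most abundant cathepsin in CPM, stood at 427, 439.5 and 446 CPM in shControl, 309, 294 and 307 in shACSL5, 385, 378 and 366 in shControl_PA and 298, 305 and 326 in shACSL5_PA. Knockdown libraries were below the control libraries in both treatments, and the fall without palmitate was -0.53 (SE 0.034, adjusted p = 6.7e-12).

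CTSD (ENSG00000117984, GRCh38 chromosome 11, 1752752 to 1764573, minus strand), the main aspartic protease of lysosomes, stood at 196, 201 and 207 CPM in shControl, 146, 133 and 149 in shACSL5, 247, 259 and 241 in shControl_PA and 155, 150.2 and 165 in shACSL5_PA. The 4 groups were ordered shACSL5, shACSL5_PA, shControl and shControl_PA from low to high, and the knockdown effect was -0.50 (SE 0.044, adjusted p = 1.41e-09). By exon length 52.69% of CTSD overlaps other annotated genes, whose own rows held 4 to 36 and 0 to 19 counts a library. CTSK, a collagen-degrading protease known from osteoclasts, fell from 3.07 ± 0.599 to 1.53 ± 0.357 CPM (log2 change -0.99, SE 0.28, adjusted p = 0.00374). The summed macrophage and osteoclast markers given above were higher in shACSL5 than in shControl, at 2.14 ± 0.376 against 0.958 ± 0.404 CPM. Of these 15 markers, 14 did not pass the filter on low counts. MRC1, picked after its values were seen, had 10 to 24 counts against 0 to 1. The part of such markers in the cathepsin values was not tested.

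CTSC and CTSA were the cathepsins that rose. CTSC, which activates serine proteases of granules, stood at 95.1, 97.1 and 89.6 CPM in shControl, 147, 151 and 154 in shACSL5, 113, 112 and 112 in shControl_PA and 134, 133 and 129.6 in shACSL5_PA. Its lowest group was shControl and its highest shACSL5, with no overlap between groups (log2 change 0.68, SE 0.039, adjusted p = 7.3e-13). CTSA, a carboxypeptidase that also protects lysosomal glycosidases, was called at 0.11 (adjusted p = 0.0289), but not without shControl replicate 1, 2 or 3 (adjusted p = 0.0777, 0.0517 and 0.0572) or shACSL5 replicate 1 or 3 (0.0969 and 0.125), nor with library sizes in place of TMM factors (0.0808). CTSO was called at -0.99 (adjusted p = 0.0429) from 1.70 ± 0.177 CPM, and its adjusted p was 0.102, 0.0761 and 0.0541 without shControl replicate 1, 2 or 3, 0.0618 and 0.181 without shACSL5 replicate 1 or 2, and 0.0717 with DESeq2. CTSZ and CTSH were not called in any of the 5 comparisons.

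**Figure D3:**
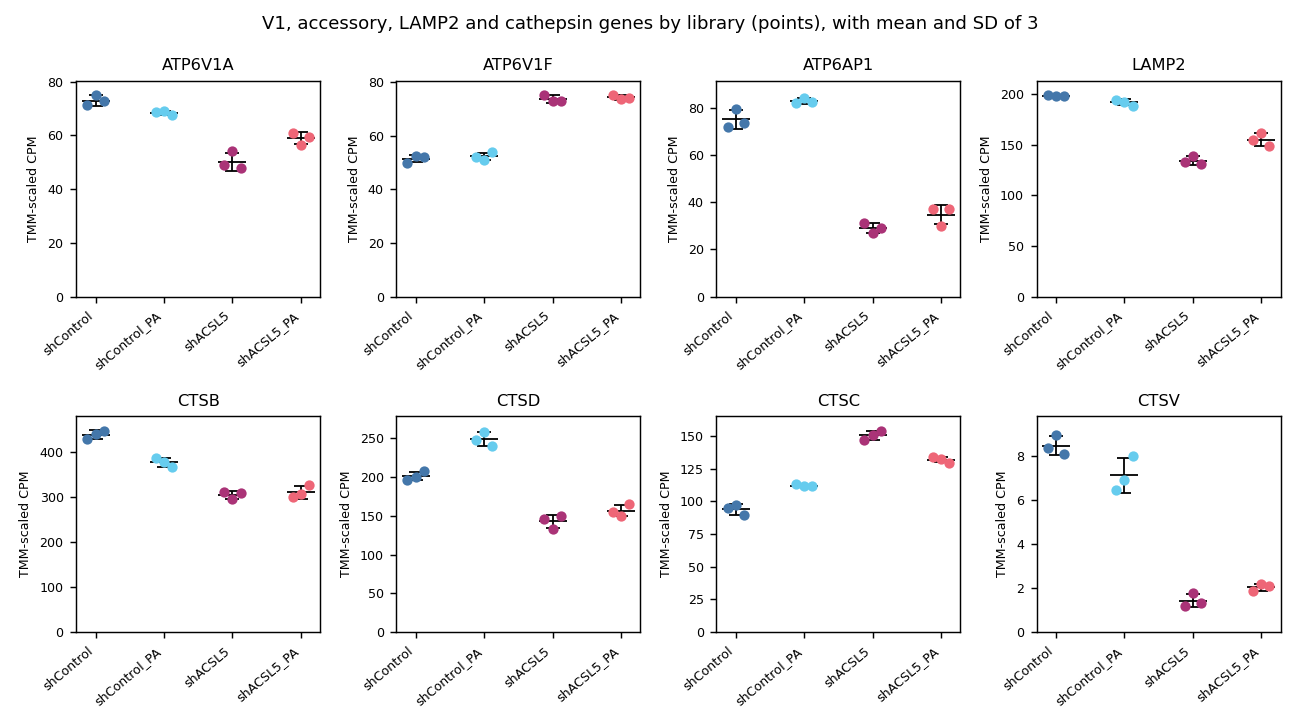
TMM-scaled CPM (linear axes from 0) of ATP6V1A, ATP6V1F, ATP6AP1, LAMP2, CTSB, CTSD, CTSC and CTSV, with 1 point for each library and a bar for the mean ± SD of 3 in each group. Both knockdown groups are below both control groups in ATP6V1A, ATP6AP1, LAMP2, CTSB, CTSD and CTSV, and above them in ATP6V1F and CTSC.

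The LAMPs changed in opposite directions. LAMP2 (ENSG00000005893, GRCh38 chromosome X, 120427827 to 120469365, minus strand), also the receptor of chaperone-mediated autophagy in its A isoform, stood at 199.5, 198 and 199 CPM in shControl, 133, 139 and 131 in shACSL5, 195, 193 and 189 in shControl_PA and 155, 161 and 148 in shACSL5_PA. It was lower in every knockdown library than in every control library (log2 change -0.56, SE 0.037, adjusted p = 7.67e-12). LAMP1 rose from 156 ± 5.47 to 181 ± 8.10 CPM (log2 change 0.22, SE 0.04, adjusted p = 6.09e-05). Per exon length LAMP2 made up 56.9% ± 0.893 of LAMP RNA in shControl and 43.5% ± 1.86 in shACSL5, so that LAMP1 was the lower of the pair in shControl and the higher in shACSL5.

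Of the mucolipins, MCOLN1, the lysosomal channel lost in mucolipidosis type IV, stood at 20.2, 17.7 and 22.3 CPM in shControl, 26.5, 25.9 and 27.3 in shACSL5, 26.0, 27.0 and 27.9 in shControl_PA and 26.4, 27.2 and 29.6 in shACSL5_PA. Its shControl libraries were the lowest and the other 3 groups overlapped (log2 change 0.41, SE 0.081, adjusted p = 0.000136). MCOLN2 and MCOLN3 were not called with the knockdown, at 0.079 (adjusted p = 0.194) and -0.26 (adjusted p = 0.136).

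Palmitate in control cells, read as shControl_PA against shControl, raised 12 of the 35 and lowered 2. The 14 called are set against 28.7% of all genes tested, of which 15.1% were higher and 13.5% lower. The median change was 0.118 over the 35 and -0.00263 over all genes. In V0 5 of 8 were higher and none lower, and 2 of 10 V1 genes, 3 of 10 cathepsins and 2 of 3 mucolipins rose. With library sizes in place of TMM factors, 9 rose and 4 fell (69.2% of calls higher in place of 85.7%), and that scaling shifted the median of all genes by -0.0482.

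ATP6V0C rose by 0.55 (SE 0.056, adjusted p = 1.08e-07), ATP6V0B by 0.47 (SE 0.058, adjusted p = 2.42e-06), ATP6V0D1 by 0.46 (SE 0.049, adjusted p = 2.41e-07) and ATP6V0A1 by 0.36 (SE 0.048, adjusted p = 6.79e-06). In each of these 4 genes the shControl_PA libraries lay above all shControl libraries in the values given above. ATP6V0E1 rose by 0.14 (SE 0.035, adjusted p = 0.00541), with an adjusted p of 0.0564 when library sizes alone were used. The V0 sum went from 484 ± 13.3 to 595 ± 7.49 CPM, 22.8% more.

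MCOLN3, a channel of early endosomes and lysosomes, showed the largest palmitate change of the 35. It stood at 5.41, 5.76 and 4.84 CPM in shControl, 4.17, 4.32 and 4.90 in shACSL5, 10.4, 8.21 and 9.10 in shControl_PA and 9.01, 7.94 and 9.57 in shACSL5_PA, and all 6 palmitate libraries were above all 6 untreated ones (log2 change 0.79, SE 0.14, adjusted p = 0.000139 in control cells). MCOLN2 stood at 49.9, 49.3 and 48.0 CPM in shControl, 50.5, 54.3 and 50.9 in shACSL5, 39.3, 40.8 and 41.8 in shControl_PA and 47.8, 47.4 and 45.3 in shACSL5_PA. Its shControl_PA libraries were the lowest of the 4 groups (log2 change -0.27, SE 0.054, adjusted p = 0.000532). MCOLN1 rose by 0.43 (SE 0.081, adjusted p = 0.000348). Per exon length MCOLN2 held 70.8% ± 2.05 of mucolipin RNA in shControl and 59.0% ± 0.579 in shControl_PA, and MCOLN1 and MCOLN3 took up the difference.

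Among cathepsins, palmitate raised CTSD by 0.30 (SE 0.043, adjusted p = 1.21e-05), CTSC by 0.26 (SE 0.04, adjusted p = 4.07e-05) and CTSA by 0.25 (SE 0.044, adjusted p = 0.000132), and CTSB fell by 0.22 (SE 0.034, adjusted p = 4.39e-05). CTSV, LAMP1, LAMP2, ATP6AP1 and ATP6AP2 were not called. ATP6V1C1 was called at 0.14 (adjusted p = 0.0203), but not without shControl replicate 3 (adjusted p = 0.0834), without shControl_PA replicate 1 (0.0903) or with library sizes alone (0.136). ATP6V1E1 was called at 0.16 (adjusted p = 0.0142), but not without shControl_PA replicate 3 (0.0764) or with library sizes alone (0.0897).

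Palmitate in ACSL5 knockdown cells, read as shACSL5_PA against shACSL5, raised 11 of the 35 and lowered 4. The 15 called are set against 21.9% of all genes tested, 12.1% higher and 9.78% lower, and the medians were 0.0595 and 0.0116. Here 2 of 8 V0 genes rose and 1 fell. The V0 sum was 748 ± 7.29 and 750.3 ± 18.8 CPM, 0.363% apart with overlapping libraries. ATP6V0A1 rose by 0.25 (SE 0.046, adjusted p = 0.00038) and ATP6V0B by 0.24 (SE 0.055, adjusted p = 0.00272), while ATP6V0E1 fell by 0.17 (adjusted p = 0.00109). ATP6V0C and ATP6V0D1 were not called, at 0.057 (adjusted p = 0.468) and 0.076 (adjusted p = 0.255).

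Outside V0, genes of each class were called higher. ATP6V1A rose by 0.23 (SE 0.053, adjusted p = 0.00261), LAMP2 by 0.21 (SE 0.038, adjusted p = 0.000353) and CTSL by 0.17 (SE 0.038, adjusted p = 0.00233). ATP6AP2 rose by 0.22 (SE 0.051, adjusted p = 0.00379) and ATP6V1B2 by 0.16 (SE 0.04, adjusted p = 0.00627), and MCOLN3 rose by 0.98 (SE 0.14, adjusted p = 2.29e-05). CTSC fell by 0.19 (adjusted p = 0.000907), and ATP6V1D, a central rotor subunit, fell by 0.20 (adjusted p = 0.00592). Palmitate in control cells and in knockdown cells are comparisons with no library in common. Of the 12 and 11 genes higher in them, 5 were shared (41.7% and 45.5%): ATP6V0A1, ATP6V0B, ATP6V1C1, CTSD and MCOLN3. MCOLN2 was lower in both, and CTSC and ATP6V0E1 were called in opposite directions.

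The weakest calls of this comparison were lost in some of the alternative fits. MCOLN2 was called at -0.15 (adjusted p = 0.0484), and its adjusted p was 0.0553 to 0.181 in the 12 fits that each left out 1 library. It was also not called with DESeq2 (adjusted p = 0.0838), with only the compared groups (0.0653) or with no filter on low counts (0.142). ATP6AP1 was called at 0.25 (adjusted p = 0.0182), with 0.0874 and 0.0506 without shACSL5 replicate 2 or 3 and 0.102 and 0.08 without shACSL5_PA replicate 1 or 3. CTSD was called at 0.13 (adjusted p = 0.0359), with 0.0547 and 0.187 without shACSL5 replicate 1 or 2 and 0.0564 and 0.163 without shACSL5_PA replicate 1 or 3. Its adjusted p was 0.0739 with library sizes alone and 0.0772 with only the compared groups. ATP6V1C1 was called at 0.17 (adjusted p = 0.00752), with 0.0501 without shACSL5 replicate 3 and 0.0519 without shACSL5_PA replicate 2.

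The interaction term tested directly whether palmitate acted differently in knockdown cells, as the response in shACSL5 minus that in shControl. It was called for 9 of the 35, 4 higher and 5 lower, against 14.5% of all genes tested, 7.15% higher and 7.39% lower. Of the V0 genes, ATP6V0C had -0.50 (SE 0.075, adjusted p = 0.000101), ATP6V0D1 -0.38 (SE 0.066, adjusted p = 0.000428) and ATP6V0E1 -0.30 (SE 0.049, adjusted p = 0.000212). None of the 8 was positive, but the other 5 were not called. The term also shares libraries with the knockdown comparison without palmitate, which had all 8 higher, so the common sign is not separate evidence. Palmitate raised ATP6V0C and ATP6V0D1 in control cells, and in knockdown cells, which stood higher without it, neither was called. CTSC had -0.45 (SE 0.055, adjusted p = 8.95e-06), with a rise in control cells and a fall in knockdown cells.

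The called positive terms were those of ATP6V1A at 0.33 (SE 0.073, adjusted p = 0.00375), LAMP2 at 0.26 (SE 0.052, adjusted p = 0.00187), CTSB at 0.25 (SE 0.049, adjusted p = 0.00142) and CTSV at 0.78 (SE 0.26, adjusted p = 0.048). The knockdown comparison without palmitate, which shares its libraries with this term, had all 4 lower. CTSV kept its call in only 2 of the 12 fits that left out 1 library, those without shACSL5 replicate 2 and without shControl_PA replicate 3. In the other 10 its adjusted p was 0.05 to 0.132, and it was 0.0983 with DESeq2. MCOLN1 had -0.37 (SE 0.11, adjusted p = 0.0296), and its adjusted p was 0.0512 and 0.0997 without shControl replicate 1 or 2, 0.0554 and 0.0648 without shACSL5 replicate 1 or 3, 0.0581 and 0.0661 without shControl_PA replicate 2 or 3, and 0.074 and 0.0633 without shACSL5_PA replicate 1 or 2. MCOLN3, with the largest palmitate change, had 0.19 (adjusted p = 0.582).

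**Figure D4:**
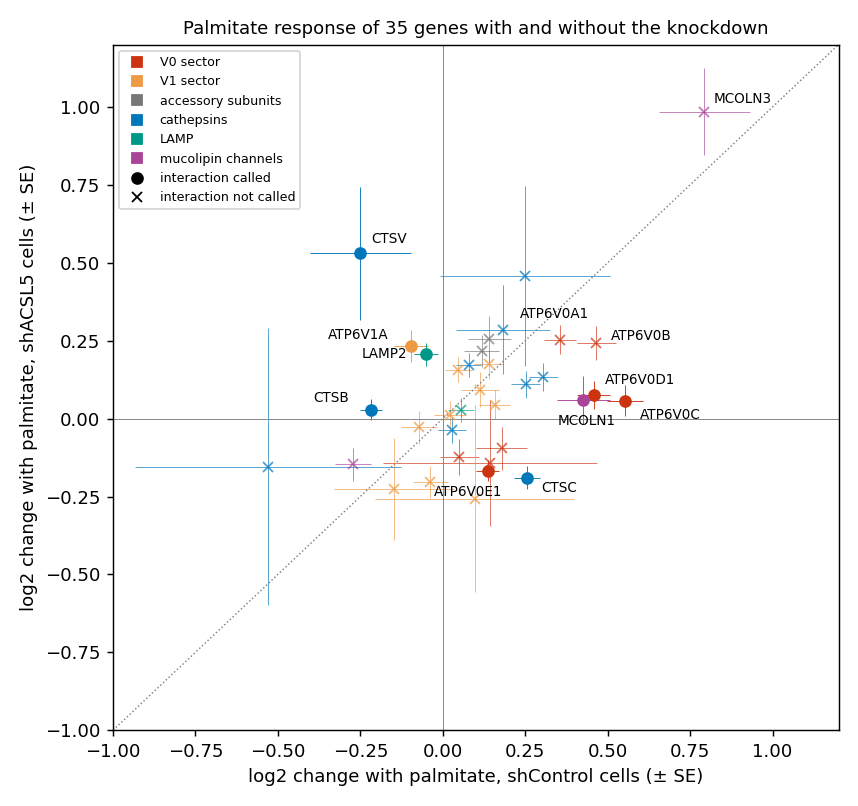
Log2 change with palmitate in shControl cells (horizontal) and in shACSL5 cells (vertical) for the 35 tested genes, with SE bars, coloured by class, and circles for genes whose interaction was called. ATP6V0C, ATP6V0D1 and MCOLN1 lie to the right near a vertical value of 0, CTSC and ATP6V0E1 lie below 0, ATP6V1A, LAMP2, CTSB and CTSV lie above the dotted line of equal change, and MCOLN3 is high on both axes.

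With palmitate present in both arms, shACSL5_PA against shControl_PA, 14 of the 35 were higher and 9 lower. The 23 called are set against 50.5% of all genes tested, 24.4% higher and 26.1% lower, with medians of 0.045 and -0.00285. V0 had 7 of 8 higher and none lower, V1 had 4 higher and 2 lower of 10, and cathepsins had 1 higher and 5 lower of 10. This comparison shares no library with the knockdown comparison without palmitate. Of the 17 and 14 genes higher in the 2 comparisons 13 were shared (76.5% and 92.9%), of the 10 and 9 lower 9 were shared (90% and 100%), and none was called in opposite directions. The matching shares over all genes tested were not computed, so this sharing is not read as particular to the 35.

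ATP6V0C rose by 0.62 (SE 0.052, adjusted p = 1.29e-09), ATP6V0E2 by 0.57 (SE 0.073, adjusted p = 6.75e-07), ATP6V0D1 by 0.40 (SE 0.046, adjusted p = 1.65e-07) and ATP6V0E1 by 0.24 (SE 0.035, adjusted p = 3.56e-06). ATP6V0A4 rose by 2.54 (SE 0.25, adjusted p = 1.96e-08) and ATP6V1F by 0.51 (SE 0.046, adjusted p = 4.32e-09). The V0 sum was 595 ± 7.49 CPM in shControl_PA and 750.3 ± 18.8 in shACSL5_PA, 26.2% more. ATP6AP1 fell by 1.25 (adjusted p = 1.06e-12), CTSV by 1.80 (adjusted p = 1.36e-08) and CTSD by 0.67 (adjusted p = 1.97e-11). LAMP2 was -0.31 (adjusted p = 2.89e-07) and LAMP1 0.19 (adjusted p = 0.000377), and MCOLN2, not called without palmitate, rose by 0.21 (SE 0.054, adjusted p = 0.00275). CTSK was called at -0.79 (adjusted p = 0.0165), but not without shControl_PA replicate 1 or 3 (adjusted p = 0.0535 and 0.0693) or shACSL5_PA replicate 3 (0.0924). ATP6V1G1 was called at 0.15 (adjusted p = 0.0327), but not without shControl_PA replicate 1 (0.2) or shACSL5_PA replicate 1 or 2 (0.276 and 0.0694), and its libraries overlapped.

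**Figure D5:**
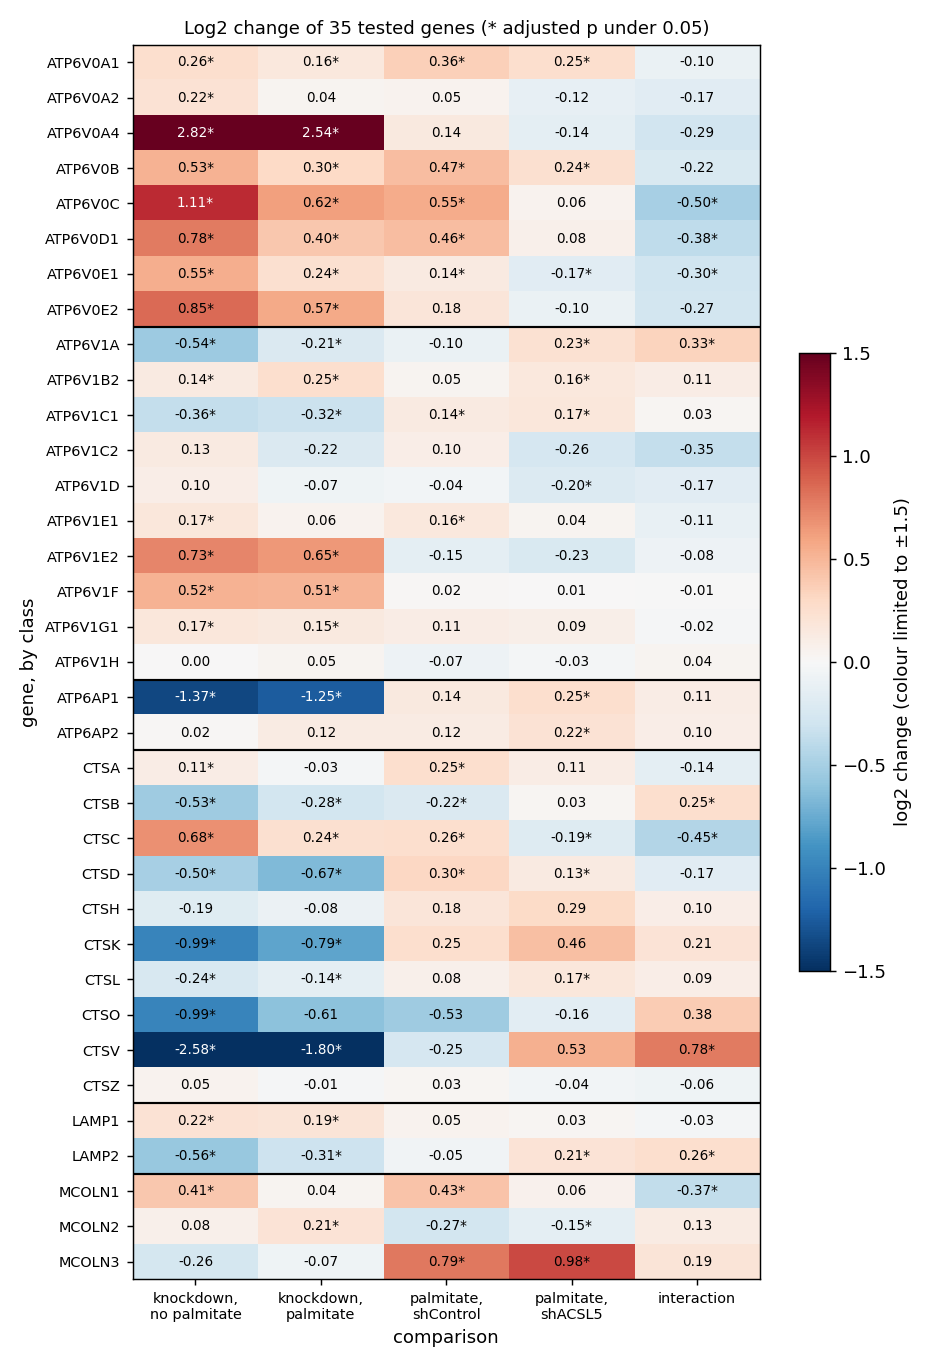
Log2 change of the 35 tested genes (rows, grouped by class between black lines) in the 5 comparisons (columns), coloured from lower (blue) to higher (red) with colours limited to ±1.5, with each value printed and an asterisk where the adjusted p was under 0.05. The V0 rows are red in both knockdown columns, where ATP6AP1, CTSV, CTSD and LAMP2 are blue.

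The other lysosomal genes, read from lists chosen with earlier results of these data known, are set against the 29.7% of all genes that were higher and the 32.6% that were lower with the knockdown. In a list of 12 assembly factors and regulators of the V-ATPase, the knockdown without palmitate raised 1 and lowered 8, with a median change of -0.472. The 8 count TCIRG1, which is a V0 subunit gene and not an assembly factor. They also include DMXL2 and DMXL1, parts of the complex that reattaches V1 to V0, at -0.89 (adjusted p = 4.63e-11) and -0.67 (adjusted p = 7.53e-08). OXR1, a TLDc-domain protein, was at -0.51 (adjusted p = 5.7e-08). Of 38 lysosomal hydrolases and their activators 8 rose and 18 fell (median -0.151). LIPA, the acid lipase that releases fatty acids from cholesteryl esters and triglycerides, fell by 1.35 (adjusted p = 4.97e-16), while PPT1, which removes palmitate from proteins, rose by 0.76 (adjusted p = 1.33e-14). Of 22 other lysosomal membrane proteins 7 rose and 11 fell. Of 13 genes that sort enzymes to lysosomes 3 rose and 6 fell, with GNPTAB, which makes the mannose 6-phosphate tag, at -1.28 (adjusted p = 2.02e-13), and of 13 Ragulator, Rag and folliculin genes, which couple lysosomes to mTORC1, 3 rose and 5 fell (23.1% and 38.5%, near the shares of all genes). The call of TCIRG1 was lost without shACSL5 replicate 2 (adjusted p = 0.0799).

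With palmitate in control cells 10 of the 38 hydrolases rose and 3 fell (26.3% and 7.89%, against 15.1% and 13.5% of all genes). In knockdown cells 15 rose and 1 fell (39.5% and 2.63%, against 12.1% and 9.78%). NEU1, a sialidase held in a complex with CTSA, rose in both, by 0.46 (adjusted p = 2.28e-05) and 0.52 (adjusted p = 6.66e-06). The interaction was called for 12 hydrolases, 10 positive and 2 negative (26.3% and 5.26%, against 7.15% and 7.39% of all genes), among them ASAH1, acid ceramidase, at 0.41 (adjusted p = 0.000647) and LIPA at 0.31 (adjusted p = 0.00502). Of the 22 membrane proteins 4 rose and 2 fell in control cells, and the 27.3% called were close to the 28.7% of all genes. In knockdown cells 7 rose and none fell (31.8% higher, against 12.1% of all genes). The knockdown without palmitate, which lowered 18 of the 38 and 11 of the 22, shares libraries with the palmitate change in knockdown cells. It shares libraries with the interaction as well. The excess of positive signs in both is thus not separate evidence.

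The factors and the inhibitors of these genes were read the same way. Of the MiT/TFE genes, MITF rose with the knockdown by 0.73 (adjusted p = 2.1e-10) and TFE3 by 0.68 (adjusted p = 1.68e-09), TFEB fell by 0.64 (adjusted p = 0.00883), and TFEC did not pass the filter. Palmitate called none of the 3 in control cells, where MITF was at -0.16 (adjusted p = 0.0511). In knockdown cells MITF fell by 0.49 (adjusted p = 1.56e-06), from 64.1 ± 3.56 to 45.5 ± 1.32 CPM, and its interaction was -0.33 (adjusted p = 0.00995). Of 9 cystatins, inhibitors of cysteine cathepsins, 4 were tested, and with the knockdown CST1 fell by 3.92 (adjusted p = 8.03e-10), CST4 by 2.61 (adjusted p = 4.58e-05) and CST3 by 0.30 (adjusted p = 1.29e-06), while CSTB, a cytosolic inhibitor chosen after its values were seen, rose by 0.21 (adjusted p = 5.83e-05). Only RNA was measured here, so these values say nothing of protein amounts, pump assembly or lysosomal pH.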

How the data were processed

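Polyadenylated RNA of 12 libraries was sequenced. The authors deposited 1 table of raw read counts per gene. Reads were processed with fastp 0.22.0, HISAT2 2.1.0 and featureCounts on GRCh38, per the submitters' processing notes. Neither the annotation release nor the strand setting is given in the sources used here. Genes were filtered with edgeR's filterByExpr, scaled by TMM factors and tested in 1 quasi-likelihood model with 4 group means (edgeR 4.0.16, limma 3.58.1, R 4.3.3, tested on simulated data). The SE is the absolute log2 change divided by the square root of the F statistic. Library totals of 16788694 to 21814751 counts and a common dispersion of 0.00203 set the precision. Replicate libraries differed by a chi-square of 2.23 to 4.36 per gene, more than sampling of reads alone gives. That value cannot tell separate cultures from libraries prepared again from the same culture. Union exon lengths, coordinates and overlaps came from GENCODE 29, which matched all 42 gene identifiers, and promoters from RefSeq. Python steps used pandas 2.3.3 and matplotlib 3.10.9.

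Values in every library were given for up to 6 called genes per comparison with the largest change and a mean of at least 5 CPM, for the highest gene per length of each class, and for genes with a called interaction. Up to 3 called genes with the smallest p were named from each of 10 lists (142 genes, all matched): MiT/TFE factors, V-ATPase regulators, hydrolases, membrane proteins, sorting genes, Ragulator and Rag genes, cystatins, and markers of macrophages and osteoclasts, of MDA-MB-231 and of luminal cells. The genes and lists were chosen with earlier results of these data known. Alternatives were RLE factors, library sizes alone, no filter, a filter at 1 CPM, a replicate block, only the compared groups, DESeq2 1.42.0 and each library left out.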

Additional observations from a re-analysis of the deposited data

Results flagged for a closer look

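For 9 of the 35 tested genes the response to palmitate differed between knockdown and control cells by edgeR's interaction term, with 3 libraries in each of 4 groups, against 14.5% of all genes tested. The response in knockdown cells was more negative for ATP6V0C, the ring subunit, with a difference of -0.50 on the log2 scale. It was also more negative for CTSC (-0.45), ATP6V0D1 (-0.38), the mucolipin MCOLN1 (-0.37) and ATP6V0E1 (-0.30). The response was more positive for CTSV (0.78), the catalytic pump subunit ATP6V1A (0.33), LAMP2 (0.26) and CTSB (0.25). In the 12 fits that each left out 1 library, the call of CTSV was lost in 10 and that of MCOLN1 in 8.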

How the results depend on the processing

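Across the 175 log2 changes of the 35 genes, 3290 values under the alternatives gave no change of sign among calls, 74 lost calls and 27 gained calls, in 27 of the changes. In the 12 fits that each left out 1 library, 24 to 27 genes were called for the knockdown without palmitate, 13 to 14 for palmitate in control cells, 12 to 14 for palmitate in knockdown cells, 21 to 24 for the knockdown under palmitate and 7 to 12 for the interaction. DESeq2 called 26, 14, 14, 23 and 9. Library sizes in place of TMM factors moved the share of called genes that rose with palmitate in control cells from 85.7% to 69.2%, and in that setting 13 were called. For the interaction, 44.4% of the called genes were positive, against 30% (3 of 10) with no filter on low counts and 33.3% with DESeq2.

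With a replicate block, 26, 14, 15, 24 and 9 genes were called in the same order, against 27, 14, 15, 23 and 9 without it. The block ended the call of CTSO for the knockdown without palmitate (adjusted p = 0.05) and added that of ATP6AP2 under palmitate (adjusted p = 0.0472). Libraries with the same number showed little shared deviation: their correlations were -0.0424 to 0.0804 over 18 pairs, and 6 of 12 libraries correlated best with their own number. Low correlations cannot show that the samples were unpaired, and the sources used here do not say.

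The 7 genes with few counts allow no statement on a change at this depth.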
